A study of Mus musculus with 8 samples.

Results

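Aminoacyl-tRNA synthetases are the enzymes that load each amino acid onto its transfer RNA. The 36 genes described here were chosen by symbol, and all 36 were found among the 12294 genes of the expression table. There were 20 cytosolic and 16 mitochondrial enzymes, told apart by the 2 that closes a mitochondrial symbol. The cells were I1DN leukemic progenitors, sorted as cKit+ and CD11b- from mice that carried transplanted I1DN leukemia. Treatment lasted 5 days and was vehicle, AG120 (ivosidenib, which blocks the mutant enzyme IDH1), AZA (azacitidine, which traps DNA methyltransferases after it enters DNA) or both drugs (AG120_AZA). Each of these 4 groups has 2 libraries, which QuantSeq made from the 3′ ends of polyadenylated RNA. All groups share the transplanted leukemia, and the labels do not spell out I1DN or give the age or strain of the mice. The labels speak of cells isolated per mouse but do not say that each library is a separate mouse, so a p-value measures the spread between these libraries, which may be technical.

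A synthetase first joins its amino acid to AMP and then hands it to the matching tRNA, and many of these enzymes also remove wrongly joined amino acids. Cytosolic and mitochondrial translation use separate sets, both encoded in the nucleus, and the mitochondrial enzymes are imported. Some enzymes are exceptions to the naming: Gars and Kars each give both a cytosolic and a mitochondrial glycyl- or lysyl-tRNA synthetase, Eprs joins glutamyl- and prolyl-tRNA synthetase in a single chain, and Farsa and Farsb are the subunits of 1 phenylalanyl-tRNA synthetase. When an amino acid runs short, uncharged tRNA activates the kinase GCN2 (Eif2ak4), and the transcription factor ATF4 that follows is known to raise many cytosolic synthetase genes through a C/EBP-ATF composite site, the amino acid response element.

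The promoters of 27 of the 36 members, 13 cytosolic and 14 mitochondrial, were matched in RefSeq (GRCm38.p6, the mm10 build), each from 250 bases before to 50 bases after the annotated start. They were searched on both strands for TGATGNAAN, a core of the amino acid response element, and for the E-box CACGTG, which MYC and related factors bind, and no base belonged to both motifs in the members' promoters. The first was in 5 of 13 cytosolic promoters (38.5%), in 0 of 14 mitochondrial genes, and in 4.5% of the 27025 genes of the RefSeq table. The E-box was in 4 cytosolic genes, in 1 mitochondrial gene (Ears2), and in 8.09% of all genes. A match describes letters and is not a measured binding site. The 5 cytosolic promoters with the first motif are shown because they hold the letters of the response element described above, with both motifs in capitals, read 5′ to 3′ on the gene's strand. They lie at chr8:111033592-111033891, plus strand for Aars, chr6:55037751-55038050, plus strand for Gars, chr13:49681880-49682179, plus strand for Iars, chr15:11399609-11399908, minus strand for Tars and chr4:129189653-129189952, plus strand for Yars.
Aars: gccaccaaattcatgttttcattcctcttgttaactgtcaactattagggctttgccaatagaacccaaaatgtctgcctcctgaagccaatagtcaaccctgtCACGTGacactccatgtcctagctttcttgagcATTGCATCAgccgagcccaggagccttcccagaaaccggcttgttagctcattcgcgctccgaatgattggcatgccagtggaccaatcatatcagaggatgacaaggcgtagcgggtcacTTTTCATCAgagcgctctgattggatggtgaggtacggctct
Gars: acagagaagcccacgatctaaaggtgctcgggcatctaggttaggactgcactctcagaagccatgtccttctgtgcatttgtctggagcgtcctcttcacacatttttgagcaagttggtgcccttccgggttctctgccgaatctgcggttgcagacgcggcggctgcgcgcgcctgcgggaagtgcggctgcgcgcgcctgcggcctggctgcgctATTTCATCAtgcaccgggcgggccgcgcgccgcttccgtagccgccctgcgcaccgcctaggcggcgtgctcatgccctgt
Iars: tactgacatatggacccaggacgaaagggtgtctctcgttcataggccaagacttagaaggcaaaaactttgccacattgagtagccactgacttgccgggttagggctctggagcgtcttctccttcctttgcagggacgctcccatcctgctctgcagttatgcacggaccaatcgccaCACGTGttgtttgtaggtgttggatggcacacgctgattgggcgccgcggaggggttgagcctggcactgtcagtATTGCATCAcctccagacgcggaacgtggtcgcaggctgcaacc
Tars: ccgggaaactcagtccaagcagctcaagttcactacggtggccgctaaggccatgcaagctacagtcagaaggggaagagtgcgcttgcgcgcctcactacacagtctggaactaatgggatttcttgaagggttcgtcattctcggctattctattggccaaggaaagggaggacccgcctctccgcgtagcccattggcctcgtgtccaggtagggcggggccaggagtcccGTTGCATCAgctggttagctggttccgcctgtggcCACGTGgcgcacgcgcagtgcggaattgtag
Yars: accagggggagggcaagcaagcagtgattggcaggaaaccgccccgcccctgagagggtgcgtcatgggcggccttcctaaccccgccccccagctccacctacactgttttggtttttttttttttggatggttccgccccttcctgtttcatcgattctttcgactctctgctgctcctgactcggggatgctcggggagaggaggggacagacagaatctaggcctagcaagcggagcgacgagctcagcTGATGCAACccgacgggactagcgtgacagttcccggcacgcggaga
In Aars the response-element motif ATTGCATCA began 113 bases upstream of the start, with another, TTTTCATCA, 8 bases downstream. In Gars it was ATTTCATCA, 31 bases upstream. Iars (ATTGCATCA, 6 bases downstream), Tars (GTTGCATCA, 16 bases upstream) and Yars (TGATGCAAC, 3 bases downstream) held it within 16 bases of the start. Aars, Iars and Tars also held an E-box, and Farsb held the E-box alone. The expression changes of these 5 genes are given with the others below.

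The libraries were first checked as a whole. Values are log2 CPM (log2 of counts scaled to a common total), and the authors' normalization gave every library nearly the same distribution, so library totals are lost. Replicates correlated at r = 0.921 to 0.936 across genes, which are not independent replicates. The leading principal component held 35.7% of the variance and put the 4 libraries with AG120 at 3.28 to 88.0 and the 4 without it at -59.7 to -25.3, with AG120_AZA replicate 2 farthest out. Of the sort markers, Kit had levels of 6.31 and 6.59 in the vehicle libraries, 5.15 and 5.84 in AG120, 6.65 and 5.54 in AZA and 4.51 and 4.26 in AG120_AZA, and Itgam, which encodes CD11b, had 2.10 and 4.34, 2.50 and 3.76, 4.53 and 3.19 and 3.28 and 2.85. With AG120, over both AZA levels, Kit fell by 1.33 on the log2 scale (limma, adjusted p = 0.0162) and Cd34, a progenitor marker, fell by 2.40. Markers of other cell types moved as well in this effect, where limma called 3.38% of all genes higher and 304 of 12294 lower. Of 10 basophil, mast cell and eosinophil genes 5 rose with AG120, and their summed level was 920 to 1360 CPM in vehicle, 1460 in both AZA libraries, 3510 to 3650 in AG120 and 2310 to 3600 in AG120_AZA. Of 12 erythroid genes 8 rose, with sums of 1360 to 1990, 1650 to 3630, 790 to 1870 and 3710 to 3790 CPM in the same order. Of 10 neutrophil genes 1 fell, with sums of 2860 to 13000, 11100 to 15500, 3950 to 6350 and 1070 to 2820 CPM. The changes of all 10 were negative. Of 7 monocyte and dendritic genes 3 fell, and their sums were 428 to 1270, 466 to 649, 255 to 426 and 249 to 308 CPM. Of 7 megakaryocyte genes 1 fell, with sums of 2460 to 2610, 2240 to 2710, 541 to 1400 and 3600 to 3870 CPM. Of the 3 B, T and NK cell genes analysed none passed, with sums of 602 to 789, 704 to 895, 679 to 1110 and 622 to 713 CPM. The basophil, mast cell and eosinophil sums were above vehicle and AZA in all 4 libraries with AG120, and the erythroid sums only in AG120_AZA. Hbb-bs, the most abundant erythroid gene, weighs heavily in these sums. It stood at 10.62 and 10.10 in vehicle and 9.64 and 7.39 in AG120. In AG120 against vehicle 10 of 12 erythroid changes were positive and 2 negative, and limma called 4 higher (0.358% of all genes). The part of these shifts in the synthetase results was not tested.

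Cytosolic synthetase genes were the more abundant class. Their mean levels over the 8 libraries ran from 4.12 log2 CPM for Cars to 8.21 for Kars, with a median of 6.39. Mitochondrial genes ran from 0.17 for Pars2 to 6.23 for Iars2, with a median of 4.22, next to 4.32 over all 12294 genes. A level of at least 5 was reached by 18 of 20 cytosolic and 4 of 16 mitochondrial genes. QuantSeq counts 1 end per transcript, so no length enters these values, but how well each 3′ end is caught differs between genes. For 13 amino acids the members hold a cytosolic and a mitochondrial gene of the same stem (such as Aars and Aars2), and the cytosolic gene stood higher in 11 of them. The exceptions were cysteine, with Cars at 4.12 and Cars2 at 4.86, and isoleucine, with Iars at 5.66 and Iars2 at 6.23. Glutamate, proline and phenylalanine also have both kinds of enzyme, under other stems: Eprs stood at 5.86 against 3.62 for Ears2 and 0.17 for Pars2, and Farsa and Farsb at 8.15 and 7.58 against 4.48 for Fars2. The plot of levels by library shows both classes.

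**Figure D1:**
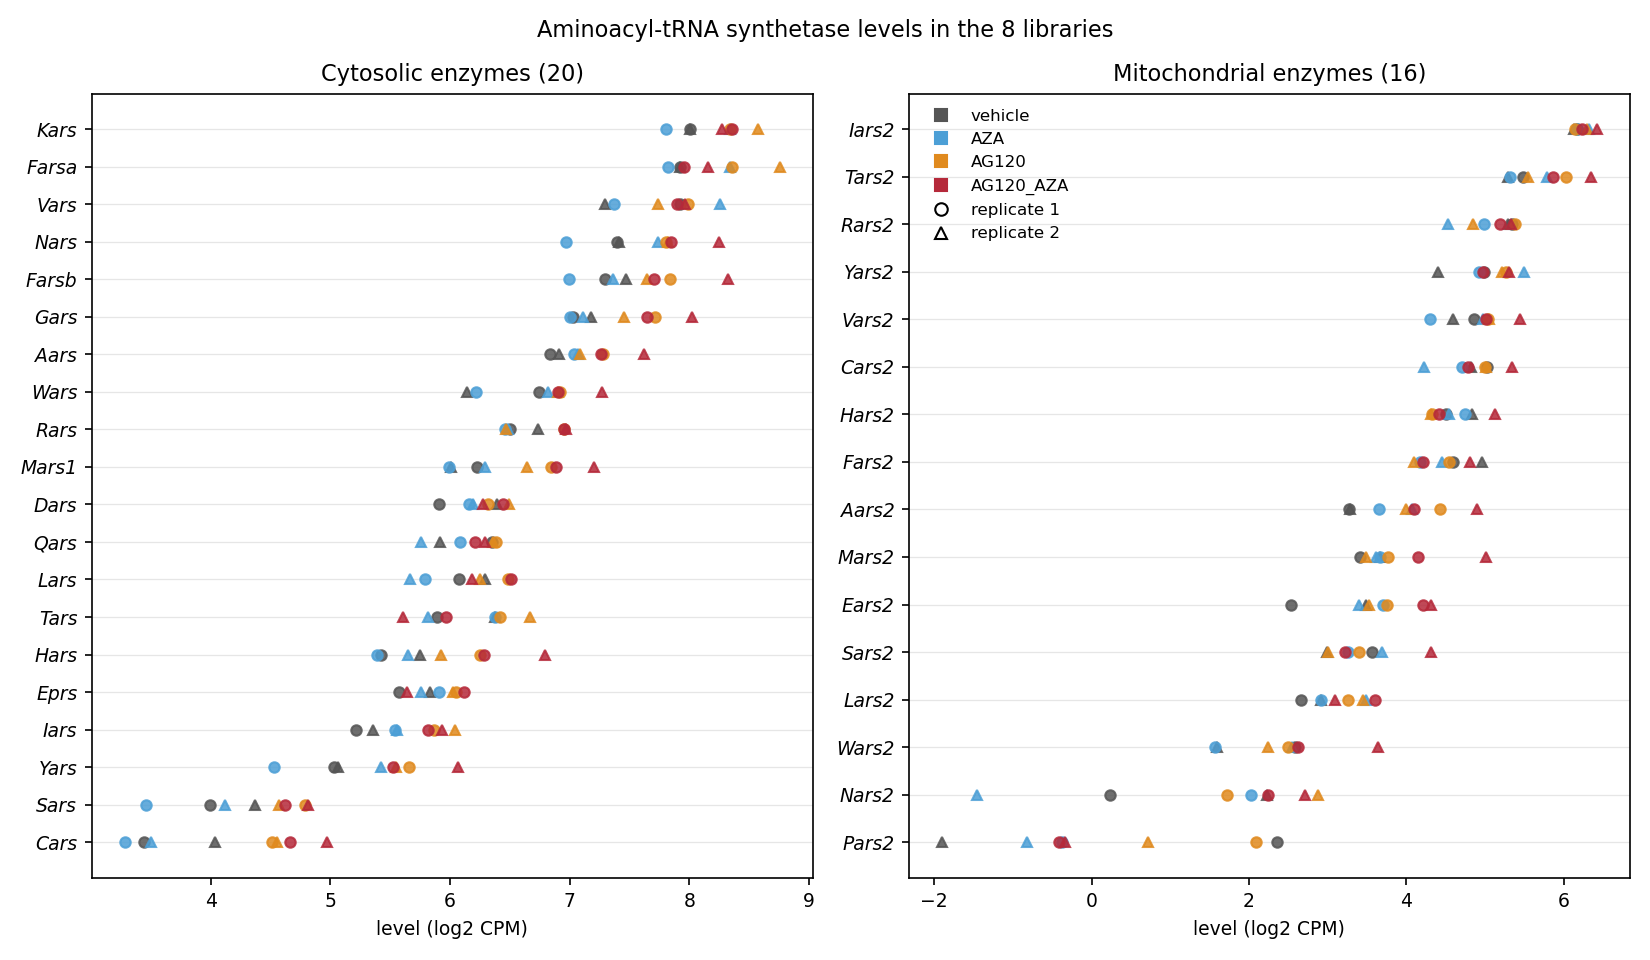
Level in log2 CPM (horizontal axis) of each of the 20 cytosolic and 16 mitochondrial synthetase genes (rows, sorted by mean), 1 symbol per library, coloured by group and shaped by replicate. Most cytosolic genes lie between 5 and 9, and the orange and red symbols of the AG120 and AG120_AZA libraries lie to the right of the grey and blue ones in many rows.

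The reads behind a value are known only as a lower bound, since each step up the sorted distinct values of a library stands for 1 read or more. Kars lay 1116 to 1544 steps above the lowest value per library and Cars 63 to 183. For Nars2 it was 2 to 49 and for Pars2 1 to 31, so these mitochondrial genes rested on few reads in some libraries.

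The effect of AG120 was read over both AZA levels, from the 4 libraries with the drug against the 4 without it. All 20 cytosolic genes had positive changes, with a median of 0.45 on the log2 scale, next to 0.0075 over all genes, of which 50.7% were positive. Of these 20, 4 rose by limma at an adjusted p below 0.05 (Benjamini-Hochberg over the 12294 genes): Cars, Mars1, Hars and Gars. Over all genes 3.38% were called higher and 5.85% in either direction. At an unadjusted p below 0.05 there were 13 of 20, against 22.9% of all genes. In bulk cells a change in the share of a cell type and a change of RNA per cell cannot be told apart.

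Cars encodes cysteinyl-tRNA synthetase (chr7, 143557230 to 143600090, minus strand; gene spans are GENCODE M21 on mm10). Its log2 CPM was 3.44 and 4.03 with vehicle, 3.28 and 3.50 in AZA, 4.51 and 4.56 in AG120 and 4.66 and 4.97 in AG120_AZA. The lowest library with AG120 was above the highest without it. The log2 change was 1.11 ± 0.25 (SE), a 2.17-fold rise (adjusted p = 0.0231) and the largest change among the cytosolic genes.

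Hars encodes histidyl-tRNA synthetase (chr18, 36766528 to 36783205, minus strand). Its levels were 5.42 and 5.74 in vehicle, 5.39 and 5.65 in AZA, 6.25 and 5.92 in AG120 and 6.29 and 6.79 in AG120_AZA, and the libraries with and without AG120 did not overlap. It rose by 0.76 ± 0.19 (SE), or 1.7-fold (adjusted p = 0.0413). Hars2, the mitochondrial counterpart, starts head to head with it on the plus strand, and exons of the pair share 195 bases in the annotation at their 5′ ends. Hars2 stood at 4.50 and 4.84, 4.74 and 4.55, 4.33 and 4.31 and 4.41 and 5.13 in the same order, a change of -0.11 ± 0.23 (SE) that did not pass (adjusted p = 0.810).

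Gars, whose product charges glycine tRNA in both compartments (chr6, 55038007 to 55079500, plus strand), stood at 7.03 and 7.18 in vehicle and 7.002 and 7.11 in AZA. It reached 7.71 and 7.45 in AG120 and 7.64 and 8.02 in AG120_AZA. The groups with AG120 again lay wholly above those without it, and Gars rose by 0.63 ± 0.15 (SE), or 1.55-fold (adjusted p = 0.0319).

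Mars1 encodes methionyl-tRNA synthetase (chr10, 127296221 to 127311786, minus strand). It stood at 6.23 and 6.01 in vehicle, 5.99 and 6.29 in AZA, 6.84 and 6.65 in AG120 and 6.88 and 7.20 in AG120_AZA. It rose by 0.76 ± 0.16 (SE), or 1.7-fold (adjusted p = 0.0175), with no overlap between libraries with and without the drug. Its 3′ end, the part QuantSeq reads, shares 68 exonic bases with Ddit3 on the opposite strand (127290774 to 127296288). Ddit3, which encodes the stress transcription factor CHOP, stood at 6.16 and 5.77, 5.73 and 6.16, 6.79 and 6.48 and 6.78 and 7.09 and rose by 0.83 ± 0.18 (SE) (adjusted p = 0.0207). Mars1 was above Ddit3 by 0.054 to 0.26 in every library, and the SD of that difference was 0.076. Among the 630 pairs of members the smallest such SD was 0.096 and the median 0.41. In all Mars1 has 3423 exonic bases and Ddit3 1713. The sources used here do not say whether strand was used in counting, so how many reads Mars1 and Ddit3 share is not known. Whether shared reads gave this likeness was not tested.

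**Figure D2:**
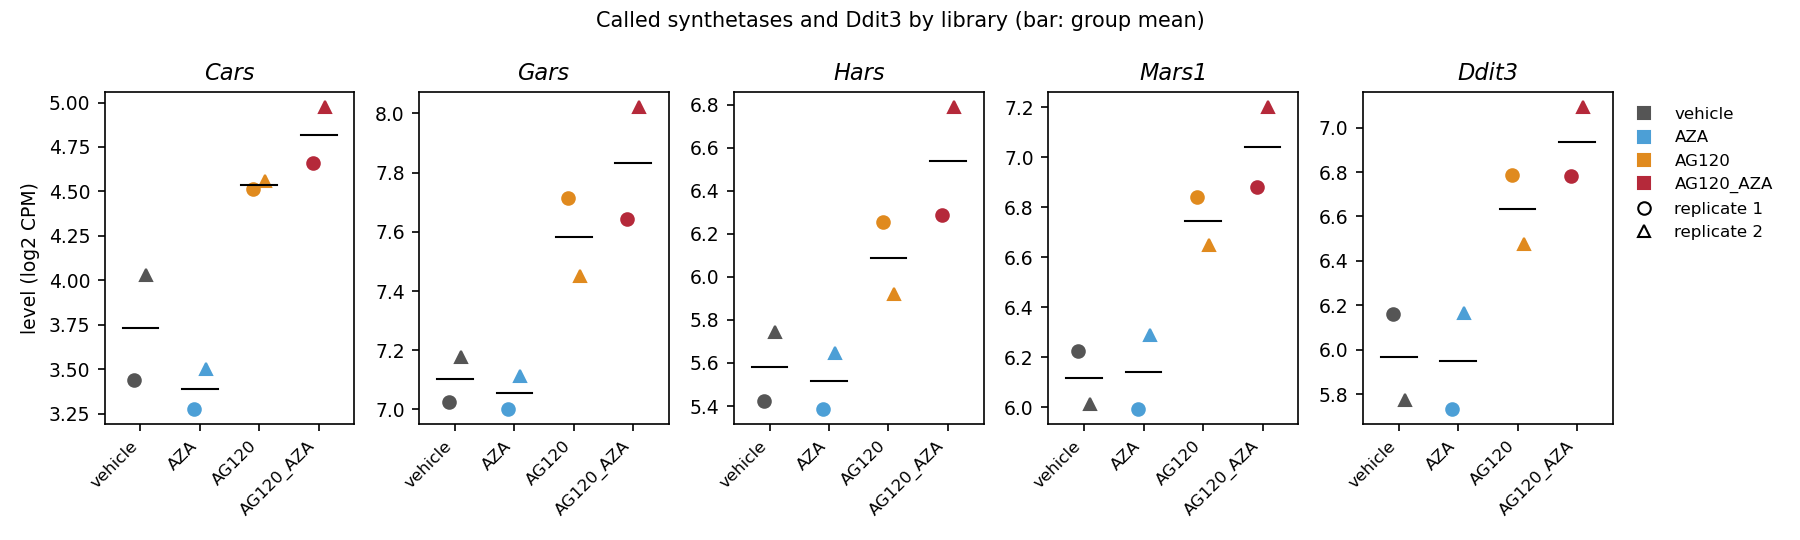
Level in log2 CPM (vertical axis, scaled per panel) of the 4 called synthetase genes and of Ddit3, which overlaps the 3′ end of Mars1, by group; circles are replicate 1, triangles replicate 2 and bars group means of 2 libraries. In each panel the AG120 and AG120_AZA libraries lie above the vehicle and AZA libraries, and the Mars1 and Ddit3 panels have nearly the same pattern.

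Other 3′ overlaps with a measured gene touched 4 more members. Farsb and Fars2 also overlap Sgpp2 and Nrn1 there, on the opposite strand, but those neighbours have no values here. Aars and Exosc6, on the same strand, differed by 0.49 to 0.73 with an SD of 0.088. Iars2 and Rab3gap2, on opposite strands, differed by -0.098 to 0.073 with an SD of 0.062. How many reads these pairs share is not known either, and whether shared reads gave the likeness was not tested. Yars with C77080 (SD 0.81) and Cars2 with Naxd (SD 0.26) did not track each other that closely. Without Aars, Mars1 and Iars2, a choice made after seeing the data, 3 of 33 members were called.

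Several cytosolic genes lay just outside the threshold. Farsb, the beta subunit of phenylalanyl-tRNA synthetase, had a change of 0.60 ± 0.18 (SE) (adjusted p = 0.0706), while its partner subunit Farsa had 0.31 ± 0.18 (SE) (adjusted p = 0.344). Yars (0.69, adjusted p = 0.0917), Nars (0.55, adjusted p = 0.0926), Iars (0.50, adjusted p = 0.0926) and Sars (0.71, adjusted p = 0.0968) followed, and charge tyrosine, asparagine, isoleucine and serine. In 11 of 20 cytosolic genes every library with AG120 was above every library without it, which held for 8.0% of all genes; beside the 4 called, these were Farsb, Yars, Nars, Iars, Sars, Wars and Aars. The remaining cytosolic changes ran from 0.05 for Tars, threonyl-tRNA synthetase, through 0.19 for Vars, 0.19 for Eprs, 0.22 for Dars, 0.28 for Qars, 0.29 for Rars, 0.35 for Kars and 0.35 for Aars to 0.40 for Lars and 0.52 for Wars.

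**Figure D3:**
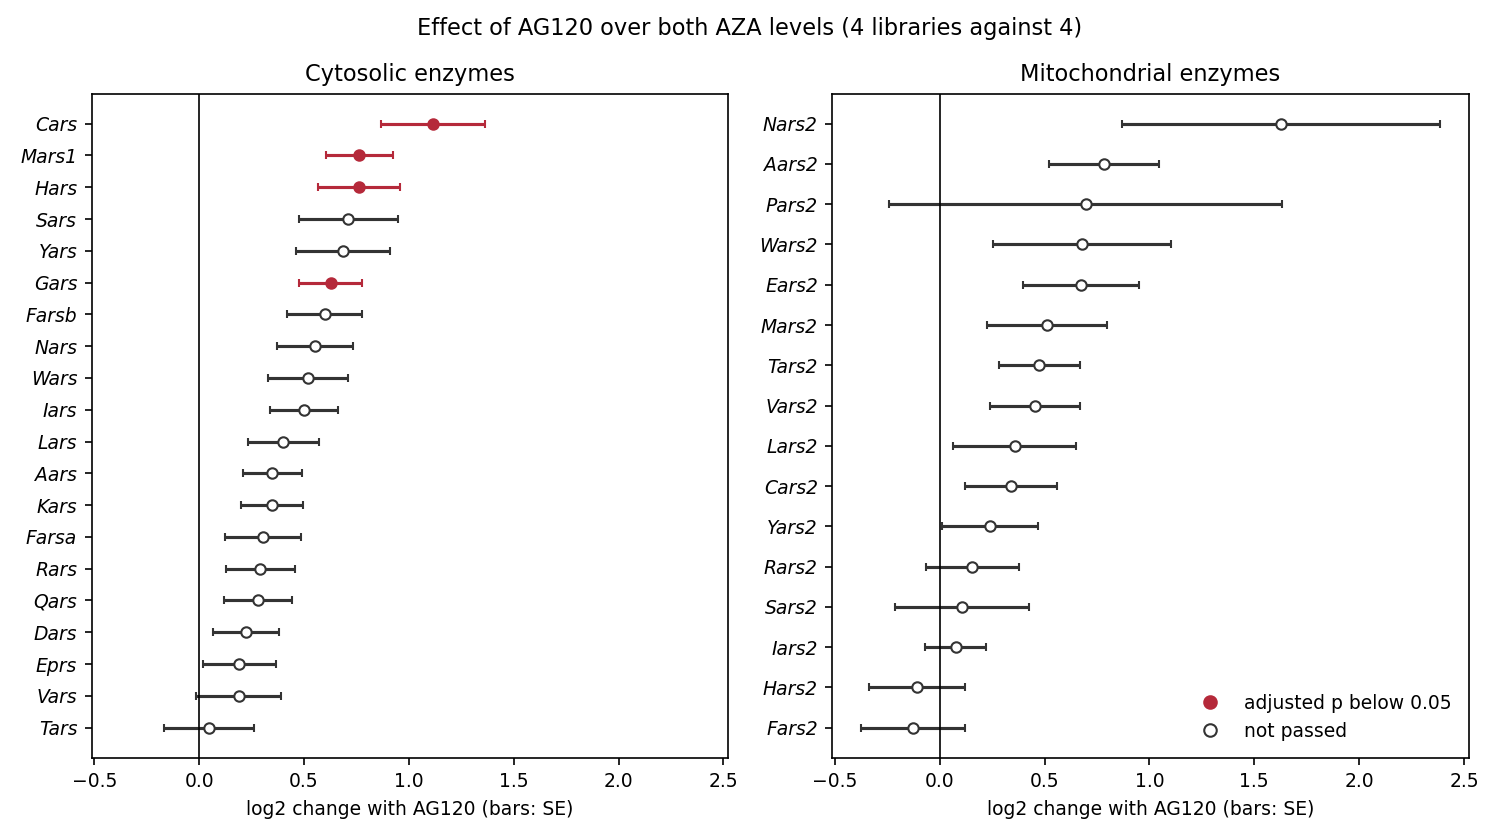
Log2 change with AG120 over both AZA levels (horizontal axis) for each cytosolic and mitochondrial synthetase gene (rows, sorted), with bars of 1 moderated SE; filled red symbols passed the test. All 20 cytosolic points and 14 of 16 mitochondrial points lie right of 0, and the mitochondrial bars are longer.

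These calls depended on single libraries. Cars, Gars, Hars and Mars1 were called with vehicle replicate 2 or AG120 replicate 2 left out, and Hars was lost without vehicle replicate 1 (adjusted p = 0.0650). Without AG120 replicate 1, without AZA replicate 1 or without limma's mean-variance trend no synthetase was called, and without AZA replicate 2, AG120_AZA replicate 1 or AG120_AZA replicate 2 only Mars1 was. Their adjusted p over these and the other alternatives ran from 0.0161 to 0.0768 for Cars, 0.0142 to 0.122 for Gars, 0.0208 to 0.135 for Hars and 0.00509 to 0.0801 for Mars1, and each change stayed positive. Without the library farthest out, AG120_AZA replicate 2, the changes were 0.99 for Cars, 0.52 for Gars, 0.61 for Hars and 0.67 for Mars1. The count over all genes fell from 719 to 413 there, and to 201 and 325 without AG120 replicate 1 and AZA replicate 1.

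Among the mitochondrial genes, 14 of 16 had positive changes with AG120, with a median of 0.40, and 0 of 16 were called by limma. Over all genes 50.7% were positive and 5.85% were called. At an unadjusted p below 0.05 there were 3 of 16, against 22.9% of all genes. They were Aars2, the alanyl enzyme (0.79 ± 0.26 (SE), adjusted p = 0.0992), Tars2, the threonyl enzyme (0.48 ± 0.19 (SE), adjusted p = 0.173), and Ears2, the glutamyl enzyme (0.67 ± 0.28 (SE), adjusted p = 0.175). Aars2 stood at 3.28 and 3.28 in vehicle, 3.65 and 4.07 in AZA, 4.43 and 3.99 in AG120 and 4.09 and 4.90 in AG120_AZA, so AZA replicate 2 overlapped the libraries with AG120. Vars2 was the single mitochondrial gene with no overlap (0.45, adjusted p = 0.236), where 8.0% of all genes lay wholly higher with AG120. The highest value belonged to Nars2 (1.63 ± 0.76 (SE)), the asparaginyl enzyme, whose libraries spread from -1.46 to 2.87 log2 CPM, and Pars2 (0.70 ± 0.94 (SE)), the prolyl enzyme, spread from -1.90 to 2.36. Wars2, Mars2, Lars2, Cars2, Yars2, Rars2, Sars2 and Iars2 had changes of 0.68, 0.51, 0.36, 0.34, 0.24, 0.15, 0.11 and 0.08, and Hars2 and Fars2, the phenylalanyl enzyme, of -0.11 and -0.13.

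The classes had similar medians, 0.45 for cytosolic and 0.40 for mitochondrial genes, and differed in precision. The median SE of a change was 0.18 in the cytosolic class, 0.25 in the mitochondrial class and 0.27 over all genes. Among genes with a mean of at least 5 log2 CPM the medians were 0.38 for 18 cytosolic and 0.20 for 4 mitochondrial genes, next to 0.018 over 4760 genes. Within the 13 pairs of the same stem, the cytosolic gene had the larger change in 8 and the mitochondrial gene in 5. The widest gap toward the cytosolic gene was histidine (0.76 against -0.11), then cysteine (1.11 against 0.34); toward the mitochondrial gene it was asparagine (0.55 against 1.63), where Nars2 rests on few reads. Outside these pairs, Eprs had 0.19 against 0.67 for Ears2 and 0.70 for Pars2, and Farsa and Farsb had 0.31 and 0.60 against -0.13 for Fars2. A call in one class and none in the other does not show that the classes differ, and members are not replicates, so the difference between classes was not tested.

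Library by library, the median difference of the cytosolic genes from their vehicle mean was 0.42 and 0.37 in the AG120 libraries and 0.40 and 0.64 in AG120_AZA, against -0.18 and 0.060 in AZA and -0.073 and 0.073 in vehicle itself. For the mitochondrial genes it was 0.36 and 0.16 in AG120, 0.28 and 0.66 in AG120_AZA, and -0.0016 and 0.21 in AZA. So the cytosolic medians of the 4 libraries with AG120 lay above those of the 4 others, while the mitochondrial median of AZA replicate 2 lay above that of AG120 replicate 2. AG120_AZA replicate 2 was highest in both classes and held the highest value of 21 of the 36 genes, and AZA replicate 1 held the lowest value of 13. The SD between replicates of these medians, pooled over groups, was 0.13 for cytosolic and 0.17 for mitochondrial genes.

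**Figure D4:**
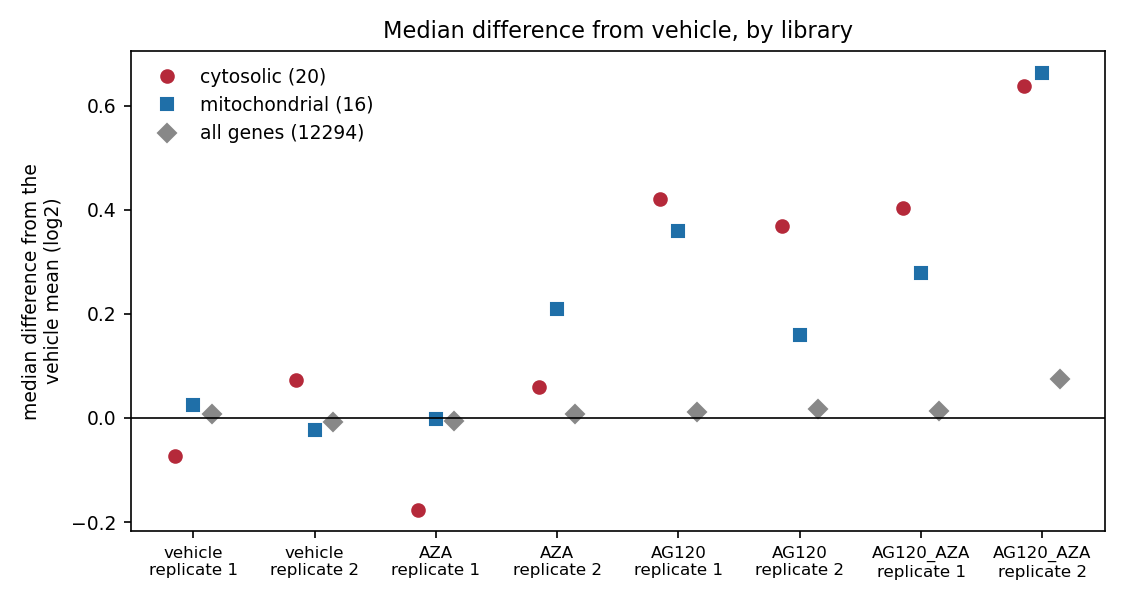
Median over the genes of each class of the difference from that gene's vehicle mean (vertical axis, log2), for each library (horizontal axis); circles are 20 cytosolic genes, squares 16 mitochondrial genes and diamonds all 12294 genes. All genes stay between -0.0070 and 0.076, while the cytosolic medians of the AG120 and AG120_AZA libraries lie between 0.37 and 0.64.

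The 8 cytosolic enzymes of the multisynthetase complex, a large assembly held together by scaffold proteins (Eprs, Lars, Iars, Mars1, Qars, Rars, Kars and Dars), had a median change with AG120 of 0.32, with 1 called. The 12 cytosolic genes outside it had a median of 0.58, with 3 called. This split was chosen after the values were seen and was not tested. Of the cytosolic genes with a promoter in RefSeq, the 5 with the response-element motif had a median of 0.50, from 0.046 for Tars to 0.69 for Yars, and the 8 without it 0.33, from 0.19 to 0.76. Cars, Hars, Lars, Nars, Rars, Vars and Wars had no matched promoter. The called genes Cars (1.11) and Hars (0.76) are therefore in neither set, and the sets were not tested against each other.

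The effect of AG120 can be read without AZA, from AG120 against vehicle, and with AZA, from AG120_AZA against AZA, 2 comparisons that share no library. In AG120 against vehicle 0 of 36 members were called by limma (0.578% of all genes were) and 6 had an unadjusted p below 0.05 (13.1% of all genes). All 20 cytosolic changes were positive, with a median of 0.43, and 12 of 16 mitochondrial ones, with a median of 0.30, next to 50.2% of all genes. Iars had the smallest p: it stood at 5.21 and 5.35 in vehicle and 5.86 and 6.04 in AG120, a change of 0.67 ± 0.23 (SE) (adjusted p = 0.241). Farsa, the alpha subunit of the phenylalanyl enzyme, stood at 7.92 and 7.92 and 8.36 and 8.76 (0.63 ± 0.23 (SE), adjusted p = 0.264), and Mars1 had a change of 0.63 ± 0.23 (SE) (adjusted p = 0.270). The groups of each of these genes did not overlap, with AG120 higher, which held for 23.8% of all genes.

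In AG120_AZA against AZA 0 of 36 members were called (2.26% of all genes in either direction, 1.06% higher) and 10 had an unadjusted p below 0.05 (19.6%). Cars had a change of 1.43 ± 0.34 (SE) (adjusted p = 0.0544), Mars1 of 0.90 ± 0.23 (SE) (adjusted p = 0.0657) and Hars of 1.02 ± 0.26 (SE) (adjusted p = 0.0697). The cytosolic median was 0.53, with 18 of 20 positive, and the mitochondrial median 0.53, with 15 of 16 positive, next to 52.1% of all genes. All 4 groups enter this fit, and the calls among the members changed with the library left out, also where that was a vehicle library. Across both readings 29 of 36 genes were positive in each (80.6%), none was negative in each and 7 had opposite signs; over all genes 33.4% were positive in each. The correlation of the changes across the 36 genes was r = 0.352, next to 0.427 over all genes, as a description, since genes of one library share its depth and handling. Tars and Farsa were the cytosolic genes with opposite signs.

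**Figure D5:**
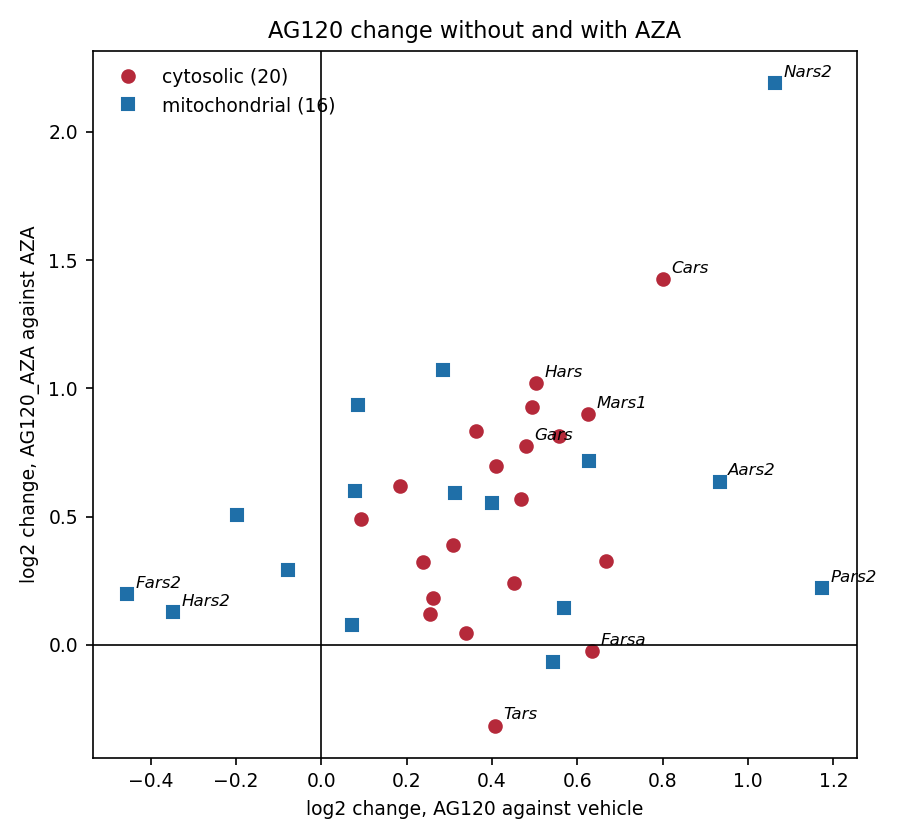
Log2 change of each synthetase gene in AG120 against vehicle (horizontal axis) and in AG120_AZA against AZA (vertical axis), comparisons without a shared library; circles are cytosolic and squares mitochondrial genes, with 11 named. Above 0 on both axes lie 29 of the 36 genes, and Tars and Farsa are the cytosolic points below 0 on the vertical axis.

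Both drugs together against vehicle gave no call among the 36 by limma (3.02% of all genes were called in either direction), and 14 had an unadjusted p below 0.05 (21.4%). Mars1, with a change of 0.92 ± 0.23 (SE) (adjusted p = 0.0546), Hars (0.96 ± 0.26 (SE), adjusted p = 0.0760) and Gars (0.73 ± 0.21 (SE), adjusted p = 0.0843) had the smallest p, and none of them overlapped with vehicle. Over all genes 27.2% lay above vehicle with no overlap. The cytosolic median was 0.55, with 19 of 20 positive and Tars at -0.35. The mitochondrial median was 0.49, with 13 of 16 positive, next to 51.2% of all genes. This comparison shares its vehicle libraries with AG120 against vehicle. Without AG120_AZA replicate 2 the medians were 0.40 and 0.28.

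For AZA alone against vehicle limma called 0 of 36 (0.0% of all genes), none had an unadjusted p below 0.05 (3.51% of all genes), and 9 of 20 cytosolic and 8 of 16 mitochondrial changes were positive (48.9% of all genes), with medians of -0.040 and 0.038. Lars, the leucyl enzyme, had the smallest p: it stood at 6.07 and 6.29 in vehicle and 5.79 and 5.67 in AZA (-0.46 ± 0.23 (SE), unadjusted p = 0.0723). Rars2, the mitochondrial arginyl enzyme, stood at 5.34 and 5.29 and 4.98 and 4.53 (-0.56), and Yars2, the mitochondrial tyrosyl enzyme, at 4.99 and 4.41 and 4.92 and 5.49 (0.51), the latter with overlapping groups. Each of these had an adjusted p of 1.0 by limma.

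Over both AG120 levels, AZA gave 0 calls among the 36 (0.0% of all genes) and no unadjusted p below 0.05 (6.19% of all genes), with medians of 0.044 for cytosolic and 0.20 for mitochondrial genes, of which 11 and 11 were positive (6147 of the 12294 genes). The cytosolic median turned to -0.020 without AZA replicate 2 and -0.0013 without AG120_AZA replicate 2, and the mitochondrial one was 0.072 without AG120_AZA replicate 2. Ears2 had the smallest p. It stood at 2.54 and 3.49 in vehicle, 3.75 and 3.53 in AG120, 3.70 and 3.39 in AZA and 4.21 and 4.31 in AG120_AZA (0.58 ± 0.28 (SE), adjusted p = 0.771), and the libraries with and without AZA overlapped. Mars2 stood at 3.42 and 3.66 in vehicle, 3.77 and 3.49 in AG120, 3.67 and 3.62 in AZA and 4.14 and 5.01 in AG120_AZA, a change of 0.53. Tars stood at 5.89 and 6.38, 6.41 and 6.67, 6.38 and 5.82 and 5.96 and 5.61 in the same order, a change of -0.40. Libraries with and without AZA overlapped for both.

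Adding AZA to AG120 gave 0 calls of 36 (0.0% of all genes) and 3 members with an unadjusted p below 0.05 (10.1% of all genes). The medians were 0.12 for cytosolic genes, 12 of them positive, and 0.19 for mitochondrial genes, 13 of them positive, next to 51.9% of all genes. The cytosolic median was 0.026 without AG120 replicate 2, 0.033 without AG120_AZA replicate 2, 0.19 without AG120 replicate 1 and 0.20 without AG120_AZA replicate 1. The mitochondrial median was 0.011 without AG120_AZA replicate 2 and 0.45 without AG120_AZA replicate 1. Tars went from 6.41 and 6.67 in AG120 to 5.96 and 5.61 in AG120_AZA (-0.76 ± 0.28 (SE), adjusted p = 0.435) with no overlap. Over all genes 2535 of 12294 were lower here with no overlap. Mars2, the mitochondrial methionyl enzyme, stood at 3.77 and 3.49 and 4.14 and 5.01 (0.95 ± 0.38 (SE), adjusted p = 0.453), and Farsa at 8.36 and 8.76 and 7.96 and 8.16 (-0.50 ± 0.23 (SE), adjusted p = 0.497). The test of whether the AG120 effect depends on AZA, the interaction, called 0 of 36 (0.0% of all genes), with no unadjusted p below 0.05 (6.22% of all genes). It was positive for 13 of 20 cytosolic and 12 of 16 mitochondrial genes, next to 51.2% of all genes. Its lowest p belonged to Farsa (-0.66 ± 0.32 (SE), adjusted p = 0.801), Tars (-0.72 ± 0.39 (SE), adjusted p = 0.803) and Rars2 (0.71 ± 0.41 (SE), adjusted p = 0.808). Rars2 stood at 5.34 and 5.29 in vehicle, 5.38 and 4.85 in AG120, 4.98 and 4.53 in AZA and 5.19 and 5.33 in AG120_AZA, and Farsa at 7.82 and 8.34 in AZA.

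Genes that work beside the synthetases were followed in the AG120 effect over both AZA levels, where 5.85% of all genes were called, 3.38% higher, and 50.7% were positive. In these lists at most 2 genes were called, so each share of calls rests on few genes. Of 12 synthetase partners 1 rose and 0 fell, with a median change of 0.18 and 9 positive. It was Aimp2 (0.65 ± 0.17 (SE), adjusted p = 0.0445), a scaffold of the multisynthetase complex. The other scaffolds had changes of 0.36 for Aimp1 and 0.40 for Eef1e1, and Aarsd1, which clears wrongly charged alanine tRNA, of 0.29; none of these passed. Aimp2 stood at 5.86 and 6.23 in vehicle, 6.16 and 6.45 in AZA, 6.50 and 6.66 in AG120 and 6.85 and 7.28 in AG120_AZA, with the libraries with AG120 all above the others. It rose in AG120_AZA against vehicle too, by 1.02 ± 0.24 (SE) (adjusted p = 0.0482).

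Of 25 cytosolic translation factors 2 rose and 0 fell, with a median of 0.35 and 19 positive: Etf1, the release factor that reads stop codons (0.71 ± 0.15 (SE), adjusted p = 0.0214), and Eif2b3, a subunit of the exchange factor eIF2B (0.82 ± 0.21 (SE), adjusted p = 0.0409). Eif4g1 (0.64, adjusted p = 0.0560) and Eef1d (0.53, adjusted p = 0.0639) were next. Of 14 mitochondrial translation factors none was called, 3 had an unadjusted p below 0.05 (22.9% of all genes) and 12 were positive, with a median of 0.22. Tufm, the mitochondrial elongation factor Tu, had the smallest p (1.66 ± 0.45 (SE), adjusted p = 0.0530), at a mean of 2.87 log2 CPM with AG120 and 1.22 without it.

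Of 24 genes of the ATF4 arm of the amino acid stress response, 2 rose and 0 fell, next to 5.85% of all genes called and 3.38% called higher. Changes were positive for 14 (58.3%), near the 50.7% of all genes. The median was 0.28, next to 0.0075 over all genes. An unadjusted p below 0.05 was reached by 7 of 24, next to 22.9% of all genes. The 2 that rose were Ddit3, which overlaps the 3′ end of Mars1 and may share reads with it, and Slc7a5 (1.24 ± 0.28 (SE), adjusted p = 0.0265), a transporter of large neutral amino acids. Shmt2 (0.57, adjusted p = 0.0777) and Mthfd2 (0.50, adjusted p = 0.113), enzymes of mitochondrial one-carbon metabolism, were next. Atf4 itself had a change of 0.27 ± 0.16 (SE) (adjusted p = 0.338), and Asns, asparagine synthetase, lay between -3.63 and 2.62 log2 CPM. Of 11 sensors of uncharged tRNA and amino acid supply none was called and 2 had an unadjusted p below 0.05 (22.9% of all genes). Changes were positive for 3 of them, with a median of -0.057. Rragc, a GTPase of the mTORC1 pathway, had -0.54 (adjusted p = 0.0720) and Eif2ak1, the heme-regulated eIF2α kinase, 0.50 (adjusted p = 0.104).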

How the data were processed

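Expression was measured by QuantSeq in 8 libraries, 2 in each of 4 groups, mapped from the sample titles. The authors deposited log2 CPM values for 12294 genes. The submitters' processing notes list, with no role or order, edgeR (version 3.28.1), limma (3.42.2), HISAT2 (2.1.0), featureCounts, cutadapt (1.14), bcl2fastq and the build mm10. The annotation counted against and the use of strand are not given in the sources used here. The values show a shared distribution: each library has a maximum of 13.37 and sums to between 999525 and 999562 CPM, so depth is known only as a lower bound on reads. By that bound the median gene lay 105 to 149 steps above the lowest class.

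The deposited log2 values were fitted unfiltered with limma 3.58.1 (R 4.3.3), with eBayes moderating variances along their trend with level. Pairwise contrasts (5) and the interaction came from 4 group means (residual df 4, prior df 7.06), and an additive model (5 and 6.85) gave the effect of each drug. P-values are two-sided and adjusted by Benjamini-Hochberg over 12294 genes; a gene is called at an adjusted p below 0.05. The model was run on simulated data, but how often it would call changes of the members' size was not tested. Values by library are given for each called member and, in comparisons with none called, for the 3 members with the smallest p; up to 4 genes of each other list are named, by p. Others, such as Atf4 and Asns, were named after their values were seen. The members and lists were chosen with earlier results of these data known. One gene is not reported here and is left out of the list counts. Gene spans are from GENCODE M21, where Mars1 is listed as Mars, and promoters from RefSeq GRCm38.p6. Tables were made with pandas 2.3.3 and numpy 2.4.6, and plots with matplotlib 3.10.9. Alternatives were no trend, vooma, library weights, only the groups compared, a filter at 5 log2 CPM, a pseudocount of 1, median centring, a replicate block and leaving out each library.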

Additional observations from a re-analysis of the deposited data

How the results depend on the processing

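In the AG120 effect over both AZA levels, limma called 0 members without the mean-variance trend, 5 with library weights (Farsb in addition) and 4 with vooma, with a pseudocount of 1 and with median centring. Over all genes it called 719 in the main fit, 211 without the trend, 1341 with library weights and 691 with vooma. With the pseudocount of 1 there were 848, and with median centring 718. Leaving out 1 library changed the calls in that effect, in AG120_AZA against vehicle and in AG120_AZA against AZA. With the pseudocount of 1, 1 member was called in each of these 2 pairwise comparisons, next to 502 and 427 of the 12294 genes. The cause of these shifts was not tested. The replicate block gave 4 called members in the AG120 effect, next to 725 of all genes, and 0 in each other comparison. Replicate 1 deviations correlated between groups at -0.111 to 0.194 across genes. With 2 libraries a group this cannot settle whether the replicate numbers pair the libraries. For AG120_AZA against vehicle the crossed replicate block on only the groups compared, added after seeing the data, called 1 member, and 892 genes in all. Without a block, the fit on only the groups compared called 200 genes and the main fit on all 4 groups 371.

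The cytosolic median with AG120 over both AZA levels was 0.38 to 0.51 when libraries were left out, and the mitochondrial one 0.30 to 0.46. Over the same omissions the mitochondrial median was 0.12 to 0.36 in AG120 against vehicle, -0.0016 to 0.21 in AZA against vehicle, 0.28 to 0.68 in AG120_AZA against vehicle, 0.011 to 0.45 in AG120_AZA against AG120, 0.32 to 0.78 in AG120_AZA against AZA and 0.051 to 0.64 in the interaction. The cytosolic median was -0.18 to 0.060 in AZA against vehicle, 0.40 to 0.64 in AG120_AZA against vehicle, 0.37 to 0.56 in AG120_AZA against AZA and -0.017 to 0.36 in the interaction and 0.026 to 0.20 in AG120_AZA against AG120. In the AZA effect over both AG120 levels the ranges were -0.020 to 0.088 for cytosolic and 0.072 to 0.24 for mitochondrial genes. With the filter at 5 log2 CPM, which leaves 4 mitochondrial genes, their median was 0.31 in AG120_AZA against vehicle, 0.29 in AG120_AZA against AZA, 0.080 in the interaction and 0.20 in the AG120 effect. Reads on Nars2 and Pars2 were few, which limits both genes.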

Other observations

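Tarsl2, a cytosolic threonyl-tRNA synthetase encoded by a second gene, is outside the 36 and was picked after its values were seen. Its log2 CPM was 0.98 and 1.67 with vehicle, 1.27 and 1.24 in AZA, 2.32 and 2.59 in AG120 and 3.37 and 2.43 in AG120_AZA. Its libraries with AG120 lay above those without it, and its change over both AZA levels was 1.39 ± 0.41 (SE) by limma, which did not pass (adjusted p = 0.0699). Tars, the main cytosolic threonyl gene, had the smallest cytosolic change in that comparison (0.05 ± 0.22 (SE)).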
